A study of Mus musculus with 27 samples.

Results

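In the vector cells, 2 methylation marks on lysine 4 of histone H3 were set against each other: H3K4me3, the trimethylated form, and H3K4me1, the monomethylated form. The members are autosomal regions made by joining every peak of the 4 vector libraries, H3K4me3 replicates 4 and 6 and H3K4me1 replicates 4 and 5, wherever peaks shared at least 1 bp. A region was classed as H3K4me3 only, both marks or H3K4me1 only where both libraries of a mark had a peak in it and, for the single-mark classes, neither library of the other mark had one. Of 44665 vector regions, 29134 fell into the 3 classes: 4496 with H3K4me3 only (10.1%), 15178 with both marks (34.0%) and 9460 with H3K4me1 only (21.2%). The remaining 15531 had a mark in only 1 of its 2 libraries and were left unclassed. The class sizes depend on single libraries: 16392 regions were H3K4me1 only without H3K4me1 replicate 5, and 7654 were H3K4me3 only without H3K4me1 replicate 4. They depend more on the peak threshold. With peaks of a −log10 q of at least 5 alone, 18934 regions were H3K4me3 only, 1040 had both marks and 270 were H3K4me1 only. The median −log10 q was 27.4 and 31.9 in the H3K4me3 lists and 3.26 and 2.77 in the H3K4me1 lists. The cut thus lay below both H3K4me3 medians and above both H3K4me1 medians. All 9 H3K4 libraries of the series, SHMT2 libraries included, gave 55043 regions.

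The cells were B220+ cells of mouse B-cell tumors. Haematopoietic stem cells of VavP-Bcl2 embryos, in which the Vav promoter drives Bcl2, an inhibitor of apoptosis, across the blood lineages, were taken from the fetal liver at E13.5, infected with empty vector and transplanted into irradiated wild-type mice, and the B220+ cells were isolated from the spleen. The SHMT2 cells, used here only as a second set of libraries, were made in the same way with MSCV-SHMT2, so both groups carry the Bcl2 transgene and both contain whatever host cells passed the B220 isolation. Vector RNA-seq had 3 libraries (replicates 1 to 3), and so did ERRBS, a reduced representation bisulfite method that reads methylation in CpG-rich DNA and whose labels name only the model, the B220+ cells and control. The labels do not tie any library to an animal of its own. The p-values below therefore speak of the spread among the libraries, which may be technical. The ChIP replicates (4 to 6) are numbered apart from the RNA and ERRBS replicates (1 to 3).

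H3K4me3 is written by SETD1 and MLL-type methyltransferase complexes and is concentrated at the start sites of genes, above all at CpG islands, where the CXXC1 protein and other CpG-binding subunits recruit those complexes. H3K4me1 is laid down largely by KMT2C and KMT2D and marks enhancers and the flanks of active promoters. A region with H3K4me1 and no H3K4me3 is commonly read as a candidate enhancer, active or poised.

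The start sites of the classes differed in sequence, and 6 promoters show the range (250 bases before to 50 after a start site, RefSeq, GRCm38.p6, CpG in capitals). They were chosen after their values were seen, as a pair from each class. Cd22, a B-cell receptor inhibitor, and Shmt2, the mitochondrial serine hydroxymethyltransferase, had both marks at the start. Xbp1, the plasma-cell regulator of the unfolded protein response, and Fosl2, an AP-1 subunit, had H3K4me3 only. Fcgr1, the high-affinity Fc receptor of myeloid cells, and Pax7, a muscle and neural-crest regulator, had H3K4me1 only.
Cd22 (chr7:30878979-30879278, minus strand, both marks): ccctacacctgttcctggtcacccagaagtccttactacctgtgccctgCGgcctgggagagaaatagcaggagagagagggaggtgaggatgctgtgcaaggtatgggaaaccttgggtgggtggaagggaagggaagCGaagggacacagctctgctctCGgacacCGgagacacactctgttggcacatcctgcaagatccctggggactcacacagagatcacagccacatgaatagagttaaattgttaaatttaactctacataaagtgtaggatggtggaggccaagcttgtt
Shmt2 (chr10:127522395-127522694, minus strand, both marks): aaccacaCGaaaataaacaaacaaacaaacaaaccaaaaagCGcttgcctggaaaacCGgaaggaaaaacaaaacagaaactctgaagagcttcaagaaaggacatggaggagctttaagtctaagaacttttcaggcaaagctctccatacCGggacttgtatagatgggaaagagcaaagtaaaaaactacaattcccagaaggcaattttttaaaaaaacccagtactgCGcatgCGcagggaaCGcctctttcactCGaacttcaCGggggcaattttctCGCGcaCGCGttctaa
Xbp1 (chr11:5520391-5520690, plus strand, H3K4me3 only): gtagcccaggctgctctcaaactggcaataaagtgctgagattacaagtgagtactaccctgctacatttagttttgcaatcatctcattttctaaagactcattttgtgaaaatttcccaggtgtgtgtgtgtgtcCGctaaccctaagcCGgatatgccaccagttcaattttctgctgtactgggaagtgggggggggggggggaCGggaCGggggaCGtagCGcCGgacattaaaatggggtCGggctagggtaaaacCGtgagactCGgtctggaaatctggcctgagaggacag
Fosl2 (chr5:32136222-32136521, plus strand, H3K4me3 only): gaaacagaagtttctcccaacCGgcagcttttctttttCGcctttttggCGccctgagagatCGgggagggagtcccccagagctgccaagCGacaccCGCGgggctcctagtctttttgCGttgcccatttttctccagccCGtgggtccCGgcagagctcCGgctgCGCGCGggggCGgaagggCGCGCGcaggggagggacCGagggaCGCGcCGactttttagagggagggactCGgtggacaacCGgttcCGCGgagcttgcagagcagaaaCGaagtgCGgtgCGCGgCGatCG
Fcgr1 (chr3:96293920-96294219, minus strand, H3K4me1 only): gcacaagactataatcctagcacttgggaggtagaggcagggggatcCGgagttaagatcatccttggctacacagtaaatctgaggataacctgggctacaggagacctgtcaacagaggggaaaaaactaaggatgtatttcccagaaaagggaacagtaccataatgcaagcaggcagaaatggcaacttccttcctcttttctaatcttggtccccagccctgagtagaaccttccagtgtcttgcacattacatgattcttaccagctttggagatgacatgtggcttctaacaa
Pax7 (chr4:139832919-139833218, minus strand, H3K4me1 only): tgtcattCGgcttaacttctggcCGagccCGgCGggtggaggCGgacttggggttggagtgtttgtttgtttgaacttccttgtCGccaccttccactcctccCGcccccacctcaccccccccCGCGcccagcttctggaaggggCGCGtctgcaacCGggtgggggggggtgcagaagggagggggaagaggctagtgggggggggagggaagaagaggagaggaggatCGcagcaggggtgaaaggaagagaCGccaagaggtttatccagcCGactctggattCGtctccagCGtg

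These 6 windows held 4 CpG (Cd22), 13 (Shmt2), 10 (Xbp1), 32 (Fosl2), 1 (Fcgr1) and 17 (Pax7). Cd22 and Pax7 run against the trend of their classes, as the counts show. Among 20085 start sites of protein-coding genes the median window held 14 CpG. Windows within 1 kb of a region with both marks held a median of 22 CpG (9551 start sites, quartiles 14.5 and 30), and those at H3K4me3-only regions held 21 (968 start sites, quartiles 12 and 30). Windows at H3K4me1-only regions held 4 (198 start sites, quartiles 2 and 7), close to the 3 of start sites with no region (8054 start sites). The share with at least 10 CpG was 86.5% at both marks, 81.7% at H3K4me3 only, 18.2% at H3K4me1 only and 20.01% with no region. By this measure the classes with H3K4me3 lay close together and apart from H3K4me1-only and unmarked starts. No test was made, because start sites are not replicates.

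Short motifs were counted on both strands of the same windows, as a description of letters and not of binding. The ETS core CCGGAAG was in 20.4% of windows with both marks, 10.95% of those with H3K4me3 only and 2.53% of those with H3K4me1 only, against 11.9% of all windows. The Shmt2 window printed above holds it. The Sp1 box GGGCGG was in 66.9%, 66.5% and 23.7% of the same classes, against 47.0% of all windows, and is one of the CpG-bearing motifs, as is the ETS core. The TATA box TATAAA ran the other way, in 6.18%, 8.57% and 12.1%, against 12.7% of all windows and 21.7% of windows with no region. CCAAT differed little, at 38.4%, 35.1% and 34.8% against 38.1% of all windows. The octamer ATTTGCAT, known from immunoglobulin promoters, was in 1.43%, 2.07% and 2.02%, against 1.67% of all windows.

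The peaks of the marks differed in width and place, while their numbers overlapped. H3K4me3 replicates 4 and 6 had 32828 and 32402 autosomal peaks of median width 578 and 646 bp, and H3K4me1 replicates 4 and 5 had 36622 and 32742 of median width 1221 and 1152 bp. The authors' fold enrichment had a median of 11.7 and 12.8 in the H3K4me3 lists and 3.73 and 3.38 in the H3K4me1 lists; folds of narrow and broad calls are not on a common footing, and the read depth behind the lists is unknown. Within 1 kb of an end of a protein-coding gene lay 51.0% and 49.7% of H3K4me3 peaks and 31.7% and 31.4% of H3K4me1 peaks. The H3K4me3 mean of 50.4% ± 0.94 (SD, n = 2) exceeded the H3K4me1 mean of 31.5% ± 0.20 (SD, n = 2) by 18.9 percentage points, and the libraries did not overlap. The two-sided exact permutation test gave p = 0.333, the smallest p that 2 against 2 libraries allow.

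Libraries of a mark shared most of their peaks, and H3K4me3 peaks lay more often under H3K4me1 than the reverse. Of H3K4me3 replicate 4 peaks, 92.0% overlapped a replicate 6 peak, and 86.1% in the other direction. For H3K4me1 the shares were 74.98% of replicate 4 in replicate 5 and 88.5% in the other direction. Between the marks, 69.4% to 77.7% of H3K4me3 peaks overlapped an H3K4me1 peak of a library, and 51.8% to 54.9% of H3K4me1 peaks overlapped an H3K4me3 peak. The largest group of unclassed regions had H3K4me1 in replicate 4 alone, 6343 regions.

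Regions with both marks were the widest, and H3K4me3-only regions the narrowest, with a median of 2388 bp against 498 bp and 1682.5 bp for H3K4me1 only. Width follows in part from the classes, since joining peaks of 2 marks lengthens a region: inside both-marks regions, H3K4me3 peaks covered a median of 1207 bp and H3K4me1 peaks 2034.5 bp. Over 5 kb were 2775 both-marks regions (18.3%), 666 H3K4me1-only regions (7.04%) and 0 H3K4me3-only regions, whose widest was 3894 bp. H3K4me1 reached past H3K4me3 on both sides in 6917 of the both-marks regions (45.6%) and on a single side in 7826 (51.6%). In 435 (2.87%) it lay within the H3K4me3 span. The median of H3K4me1-only regions was 972 bp without H3K4me1 replicate 4 and 1025 bp without replicate 5, since then a peak of the remaining library sufficed.

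**Figure D1:**
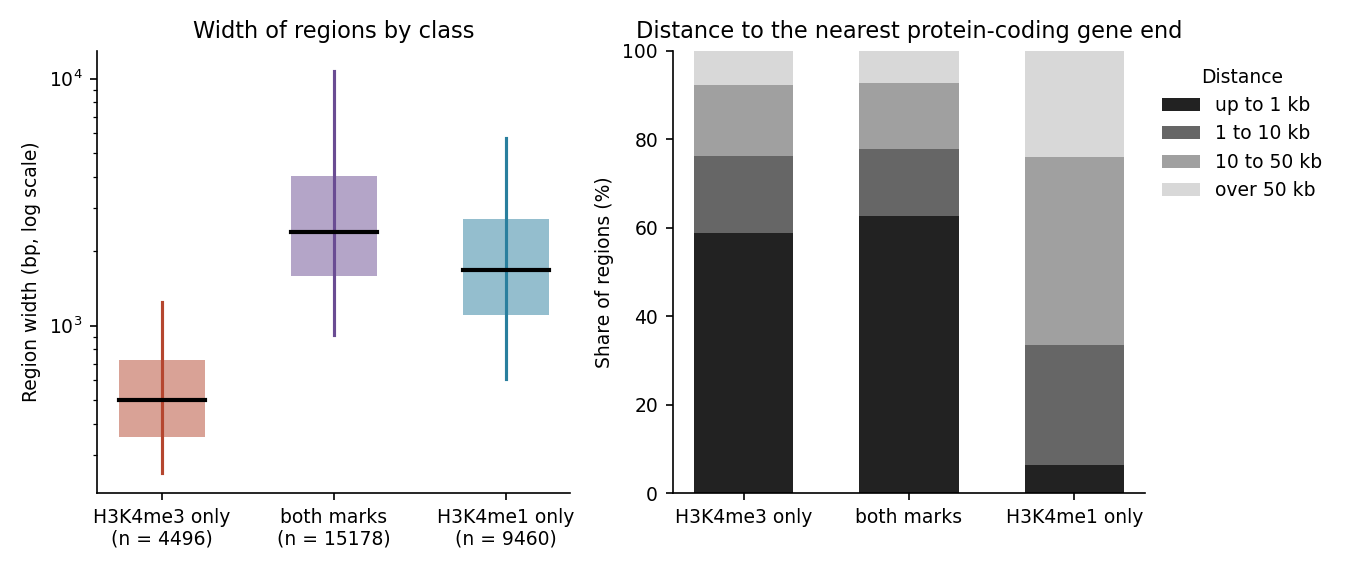
Left, width of vector regions in bp on a log scale, with the median (black line), the quartiles (box) and the 5th to 95th percentile (thin line) for each class. Right, the share of regions in percent by distance to the nearest end of a protein-coding gene: 58.8% of H3K4me3-only and 62.7% of both-marks regions lie within 1 kb, against 6.35% of H3K4me1-only regions.

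H3K4me1-only regions lay farther from protein-coding gene ends than the other classes, though 61.8% had their middle inside a gene. Their median distance to the nearest protein-coding gene end was 18792 bp, against 406.5 bp for H3K4me3 only and 245 bp for both marks. Over 10 kb from an end lay 66.6% of H3K4me1-only regions (6299), 23.8% of H3K4me3-only regions (1069) and 22.3% of both-marks regions (3383). Of those distant regions, 62.5%, 41.3% and 54.3% had their middle inside a gene. At the gene start the order of the classes differed from the other end of the same gene. Among 16457 genes with a listed start, 45.8% had both marks, 4.86% H3K4me3 only and 0.845% H3K4me1 only at a start that is an outer end. The other end carried both marks in 8.50%, H3K4me3 only in 0.583% and H3K4me1 only in 2.18%.

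H3K4me3-only regions were of mixed kinds. Of the 4496, 1838 (40.9%) lay within 1 kb of a both-marks region, and 81.5% of these were within 1 kb of a gene end. The other 2658 had a gene end within 1 kb in 43.2% and none within 10 kb in 35.4%. Some lay at transfer RNA (tRNA) genes, which are transcribed by RNA polymerase III. Of 391 tRNA genes, 53 (13.6%) had H3K4me3 only at their ends and 156 (39.9%) had both marks, against 4.81% and 47.1% of 20665 protein-coding genes, the background shares for the gene counts below. Of 56 H3K4me3-only regions with a tRNA end within 1 kb, 39 lay over 1 kb from any protein-coding end. Their median width was 823 bp, and 33 of the 56 had an H3K4me1 peak in both SHMT2 libraries. tRNA genes occur in near-identical copies, and the placing of reads that match several copies is not stated in the labels.

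The widest H3K4me3-only region, 3894 bp on chromosome 3 (mm10, 96499464 to 96503357), covered the lysine tRNA gene n-TKctt16, with folds of 44.3 and 48.6 in replicates 4 and 6. The 5 H3K4me3-only regions with the highest fold percentile in the weaker of the 2 libraries lay nearest Srsf5, Sp4, Zfp213, Haao and Mri1. Those nearest Zfp213 and Haao, 9034 and 12704 bp from these genes, covered the tRNA genes n-TPtgg6 and n-TIaat17. Srsf5 (a splicing factor of the SR family) had a 1199 bp region at its end with folds of 56.9 and 74.0, and was expressed at 56.6, 70.3 and 75.1 TPM. Sp4 (a GC-box binding factor) had a 540 bp region 140 bp from its end, with folds of 55.5 and 74.6. A both-marks region also lay within 1 kb of the Sp4 start, so that gene end counts under both marks.

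The both-marks regions highest in all 4 libraries lay at Eno1, Dcaf12, B3gnt2, Cyth1 and Stard5. Cyth1, an exchange factor for ARF GTPases, had 57200 bp, of which H3K4me3 peaks covered 11618 bp and H3K4me1 peaks 55954 bp, at 175, 137 and 167 TPM. B3gnt2, a glycosyltransferase of polylactosamine synthesis, had 25426 bp at 133, 144 and 174 TPM. Eno1, the glycolytic enolase, had folds of 51.4 and 70.4 for H3K4me3 and is listed at 0 TPM in all 3 libraries, which bears on the reading of the TPM tables below. The widest both-marks region, 87127 bp on chromosome 8 next to Gas8, covered the repeated 5S ribosomal RNA genes around n-R5s100. There H3K4me3 peaks covered 75763 bp, and the tandem copies leave the placing of reads uncertain.

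The next widest both-marks regions, named after their values were seen, were at Ikzf1, Foxo1, Mef2c and Ptk2b. Ikzf1, the Ikaros factor of lymphoid development, lay under 80080 bp on chromosome 11 (11702397 to 11782476). H3K4me1 covered all 80080 bp and H3K4me3 covered 928 bp of it. Both RefSeq starts of Ikzf1, at 11685925 and 11690177, lay before the region and had both marks of their own. Ikzf1 was at 843, 709 and 856 TPM. Foxo1, a factor needed for B-cell development, lay under 75347 bp with 3651 bp of H3K4me3, at 666, 539 and 652 TPM. Mef2c, a MADS-box factor of B-cell activation, held 70721 bp inside the gene, 13836 bp from its nearest end, with 13768 bp of H3K4me3, at 407, 264 and 354 TPM. Ptk2b, a tyrosine kinase related to focal adhesion kinase, had 66409 bp with 8836 bp of H3K4me3, at 329, 233 and 269 TPM. In these 4 regions H3K4me1 covered more bases than H3K4me3.

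H3K4me1-only regions reached 42527 bp. The widest lay inside Mbnl1, a splicing regulator, 33537 bp from its nearest end (74.4, 76.4 and 96.0 TPM). The next widest, named after their values were seen, were inside Fchsd2, an actin-binding endocytosis protein (35785 and 23382 bp; 41.8, 24.9 and 27.3 TPM), Nr3c1, the glucocorticoid receptor (33225 bp; 290, 239 and 335 TPM), and Pkig, an inhibitor of protein kinase A (22785 bp; 229, 233 and 281 TPM). Among the highest by fold percentile were regions nearest Kcnj1, Ralgds, Spty2d1 and Stc1. Ralgds, an exchange factor for Ral GTPases, had a 2679 bp region inside the gene, 3904 bp from an end (303, 222 and 269 TPM). Kcnj1, a kidney potassium channel, was at 0.437, 0.580 and 0.614 TPM, and Stc1, the hormone stanniocalcin, was listed at 0 in 2 libraries and at 0.0582 in the third. The genes nearest to the highest H3K4me1-only regions thus had high TPM in some cases and nearly none in others.

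Of the H3K4me1-only regions over 10 kb from any protein-coding gene end, those with the highest percentile lay nearest Spty2d1, Stc1, Snx29, Fchsd2 and Acvr1b. The region inside Snx29, a sorting nexin, was 7703 bp wide and 60238 bp from the nearest end of the gene, with folds of 6.35 and 4.79. The region inside Acvr1b, an activin receptor, was 5318 bp wide, 13088 bp from its nearest end, with folds of 6.49 and 4.70. Genes of other kinds lay closer, a pseudogene 2246 bp from the Snx29 region and the miRNA gene Mir6962 1392 bp from the Acvr1b region. Snx29 was at 97.7, 50.9 and 104 TPM and Acvr1b at 20.2, 11.8 and 17.2 TPM. Both had H3K4me3 peaks in some SHMT2 libraries: replicates 5 and 6 at Snx29, and all 3 at Acvr1b.

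Genes were classed by regions within 1 kb of either end of a protein-coding gene, with both marks taking precedence. By this rule 9725 genes (47.1%) had both marks, 993 (4.81%) H3K4me3 only, 281 (1.36%) H3K4me1 only and 8283 (40.1%) no region. A further 1383 had only regions of 1 library of a mark. These shares are the background for the list counts that follow. A region was counted whole, so either mark may lie farther than 1 kb from the end. Bases under a mark, where given for a gene, likewise sum its peaks over the whole of those regions. Because the outer ends of a gene were used, a start site inside the gene was not seen: 323 of the 8283 genes without a region had both marks at a RefSeq start elsewhere, Mef2c, Egr2 and the H3K4 methyltransferase subunit Dpy30 among them. Of the 993 H3K4me3-only genes, 81 had both marks at a listed start, and so did 34 of the 281 H3K4me1-only genes. Among genes with a listed start, H3K4me1 only was at 139 starts and at 359 other ends.

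Under these gene classes, mean expression was ordered, from low to high, as no region, H3K4me1 only, H3K4me3 only and both marks, in each of the 3 vector RNA libraries. Median TPM of both-marks genes was 16.3, 17.5 and 16.9 in replicates 1, 2 and 3 (9477 genes with a TPM row). For H3K4me3-only genes it was 2.46, 3.19 and 3.21 (944 genes), and for H3K4me1-only genes 0.334, 0.521 and 0.512 (255 genes). For genes with no region the median was listed at 0 in all 3 (7411 genes). On the scale of log2(TPM + 1), the mean of both-marks genes was above that of H3K4me3-only genes by 1.56 ± 0.03 (SD, n = 3 libraries). H3K4me3-only genes were above H3K4me1-only genes by 0.87 ± 0.09, and H3K4me1-only genes above genes with no region by 1.18 ± 0.11 (SD, n = 3 each). Each difference was above 0 in 3 of 3 libraries, with an exact sign-flip permutation p of 0.25, the smallest that 3 libraries allow. A gene beside a single-mark region and a both-marks region counted under both marks. Taken by region, genes nearest H3K4me3-only regions within 1 kb had medians of 13.9, 14.9 and 14.3 TPM (2211 genes). For both-marks regions these were 17.4, 18.6 and 17.9 TPM (8218 genes), and for H3K4me1-only regions 6.39, 7.82 and 7.50 TPM (552 genes). At 10 to 50 kb, genes nearest H3K4me1-only regions had 20.6, 22.7 and 22.3 TPM and those nearest both-marks regions 16.7, 19.2 and 18.0.

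**Figure D2:**
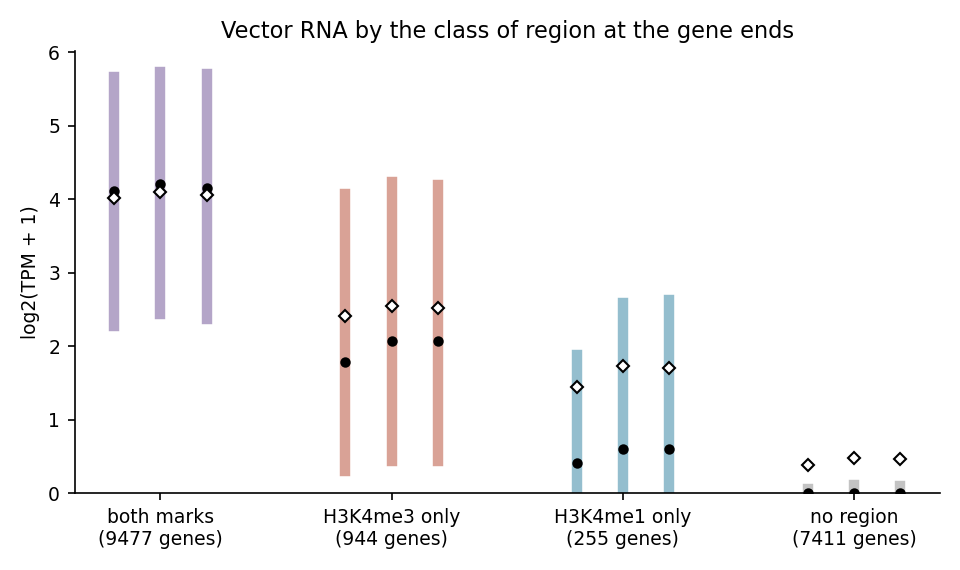
Expression of protein-coding genes in log2(TPM + 1) by the class of region at their ends. For each class the 3 bars are vector RNA replicates 1, 2 and 3 from left to right: bars span the quartiles, filled circles are medians and open diamonds are means over genes, and in every library both-marks genes had the highest median, at 16.3 to 17.5 TPM before the log.

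The step between the single-mark classes depended on how low TPM were treated. Restricted to genes averaging 1 TPM or more, a filter on the measured value itself that kept 621 of 944 and 108 of 255 genes, the difference of H3K4me3 only over H3K4me1 only was 0.10 ± 0.27, and the libraries did not share a sign (exact sign-flip permutation p = 1, n = 3). The difference of both marks over H3K4me3 only was 1.01 ± 0.05 under that filter. With a pseudocount of 0.1 in place of 1 and no filter, H3K4me3 only exceeded H3K4me1 only by 1.504 ± 0.11. At least 1 TPM was reached by 84.7% to 86.3% of both-marks genes, 61.7% to 66.8% of H3K4me3-only genes, 34.5% to 43.9% of H3K4me1-only genes and 9.59% to 12.4% of genes with no region. In the 3 SHMT2 RNA libraries the same genes were in the same order, with both marks above H3K4me3 only by 1.64 ± 0.03 and H3K4me3 only above H3K4me1 only by 0.93 ± 0.04 (SD, n = 3).

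The TPM of single genes are given as listed, and whether each row carries the right gene's value was not tested. Of the 100 protein-coding genes with the highest mean TPM, 46 lay on chromosome 9, 21 on chromosome 15 and 12 on chromosome 7. Gpd1l, a glycerol-3-phosphate dehydrogenase-like protein on chromosome 9, stood at 12440, 9534 and 11212 TPM, while the glycolytic gene Gapdh stood at 4.70, 1.80 and 2.04 TPM and the cyclophilin gene Ppia at 4.20, 4.41 and 5.70 TPM, though the ends of all 3 genes carried both marks. These 3 were named after their values were seen, and the cause was not tested. Within each of the 19 autosomes both-marks genes were above H3K4me3-only genes, by 0.82 to 2.19 on the log2(TPM + 1) scale, and above H3K4me1-only genes, by 1.33 to 3.87. H3K4me3-only genes were above H3K4me1-only genes on 18 of 19 autosomes. Chromosome 2 was the exception, at -0.46 (87 against 15 genes). Without chromosomes 9 and 15, an alternative added after the data were seen, both marks exceeded H3K4me3 only by 1.55 ± 0.03.

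Libraries also differed in the summed TPM of genes of other cell types. In bulk samples fewer cells of a type and less RNA per cell cannot be told apart. The summed TPM of 19 erythroid genes was 285 in vector RNA replicate 1, 9168 in replicate 2 and 2074 in replicate 3, and that of 24 myeloid genes was 224, 1224 and 1127. The 20 T-cell genes summed to 531, 744 and 722 TPM and the 12 natural killer genes to 103, 165 and 235. In each library 3 erythroid genes, 1 natural killer gene and 0 T-cell genes were listed at 0. Of the myeloid genes, 1, 0 and 1 were listed at 0 in replicates 1, 2 and 3. B-cell surface and signalling genes summed to 14864, 13218 and 11827 TPM (28 genes). The 11 germinal-centre genes summed to 1964, 537 and 1253 TPM, so a list within the B lineage varied too. The 10 plasma-cell genes summed to 2925, 3154 and 4042 TPM and the 20 B-cell transcription factors to 8334, 6155 and 6982 TPM. Of the T-cell sums, Cd2, which mouse B cells also make, gave 370, 214 and 285 TPM and Il7r gave 19.9, 307 and 258 TPM. Replicate 1 was the lowest in each of the non-B lists and in the plasma-cell list. It also had the lowest mean log2(TPM + 1) of all genes, at 2.36 against 2.47 and 2.43, and of each class, H3K4me1-only genes included (1.44 against 1.73 and 1.70). The part of other cell types in the marks or in the expression differences was not tested.

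Around start sites H3K4me3 peaks lay close by on both sides, with a dip at the start itself, and H3K4me1 peaks lay farther out. At genes of 50 TPM or more (2922 start sites), H3K4me3 replicates 4 and 6 covered 55.5% and 59.5% of start positions and reached 81.5% and 83.1% at 600 bp downstream. H3K4me1 replicates 4 and 5 covered 19.6% and 14.8% of the same start positions, and their highest coverage, 63.9% and 59.5%, came 1300 and 1400 bp downstream. A lower H3K4me1 shoulder, 40.7% and 36.4%, lay 900 bp upstream. At genes of 1 to 10 TPM (3567 start sites) the H3K4me1 maximum was nearer, 800 bp downstream, at 46.1% and 38.8%, and at genes under 1 TPM (8163 start sites) coverage was at most 12.2% for H3K4me3 and 8.69% for H3K4me1. At 2 kb downstream of the starts of genes at 50 TPM or more, H3K4me1 covered 55.2% and 52.8% and H3K4me3 20.4% and 22.4%.

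**Figure D3:**
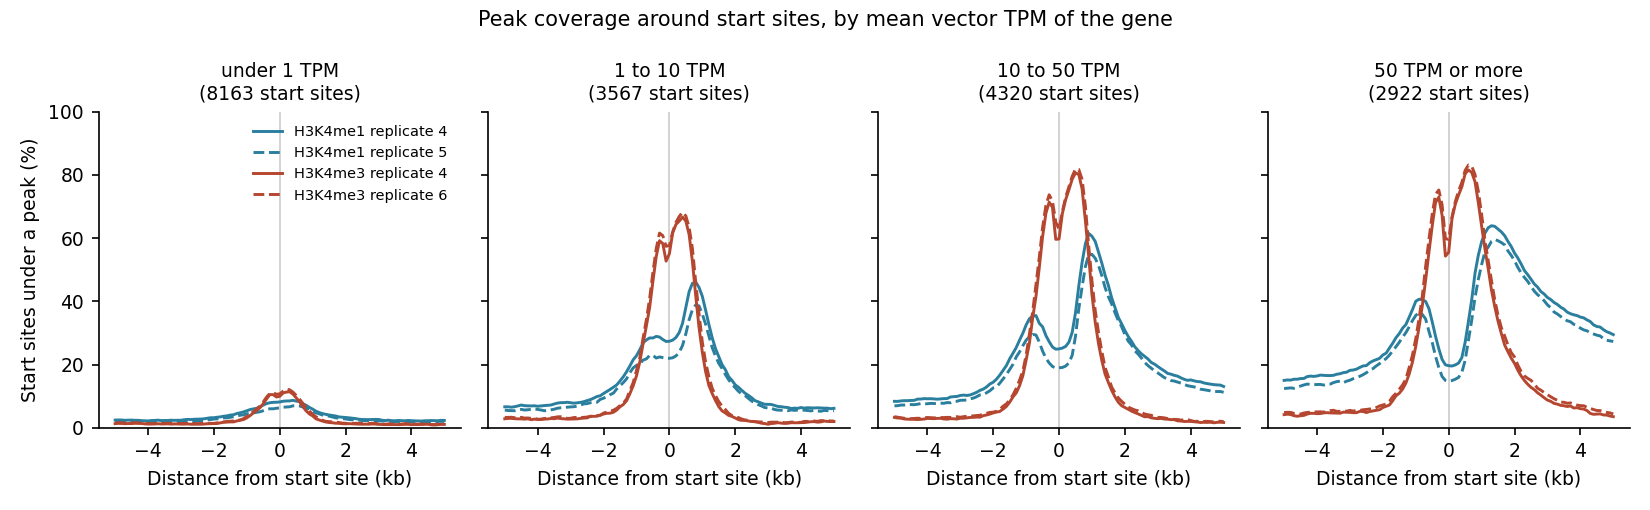
Share of RefSeq start sites, in percent, that lie under a peak at each distance from the start (in kb, downstream to the right), in 4 panels by the mean vector TPM of the gene. Solid and dashed lines are the libraries of each mark: H3K4me3 is highest at 400 to 600 bp downstream at genes of 1 TPM or more, and H3K4me1 peaks farther out, at 800 to 1400 bp.

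Among genes with both marks, those with more bases under peaks in the whole regions at their ends had higher TPM. In the lowest quintile by H3K4me3 bases (median 1073 bp) median TPM was 5.21, 6.48 and 5.79, and in the highest quintile (median 3723 bp) it was 35.4, 36.2 and 35.3. By H3K4me1 bases the lowest quintile (median 934 bp) had 9.29, 9.90 and 9.23 TPM and the highest (median 7759 bp) had 42.5, 43.4 and 42.5. Each intermediate quintile lay between its neighbours in every library. This is a description over genes, which share libraries and are not replicates.

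Each H3K4me1-only region within 50 kb of a gene end was assigned to the gene with the nearest end, and genes with more such regions had higher TPM. Gene length was not adjusted for. Both-marks genes with none had a median of 13.3, 14.1 and 13.5 TPM (6740 genes), and those with 3 or more had 46.4, 47.4 and 49.4 TPM (545 genes). For H3K4me3-only genes the medians were 1.60, 2.03 and 2.04 TPM with none (688 genes) and 34.95, 38.5 and 37.6 TPM with 3 or more (56 genes). Genes with no region at their ends had 7.90, 13.0 and 9.72 TPM with 3 or more (57 genes). Irf2 and Pde7a, with 11 regions each, had the most. Irf2, an interferon regulatory factor, was at 239, 205 and 177 TPM, and Pde7a, a cyclic AMP phosphodiesterase, at 50.1, 28.6 and 34.4 TPM. Bcl2, the gene that the model's transgene carries, had 7 regions and 181, 264 and 243 TPM, values that cannot be split between the transgene and the mouse gene. Others with many regions had low TPM: Tnip3, with 10 regions, was at 0.107, 0.0507 and 0.179 TPM, and Fam53b, with 9, at 2.28, 6.55 and 2.94 TPM. Irf2, Pde7a, Tnip3 and Fam53b were named after their values were seen.

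B-cell genes carried both marks almost throughout. All 28 genes of B-cell surface and signalling had both marks at their ends (100%), against 47.1% of protein-coding genes. Their median was 5461.5 bp under H3K4me3, against 2357 bp for the 29 housekeeping genes. Over all genes it was 883 bp, a median that includes the 40.1% of genes with no region. The whole regions at the ends of Cd22 held 9972 bp of H3K4me3 and 39188 bp of H3K4me1. Cd22 stood at 3394, 2110 and 2052 TPM.

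Of 20 B-cell transcription factors, 16 had both marks (80.0%). Irf8, an interferon regulatory factor of B and myeloid cells, had 10077 bp of H3K4me3 and 33726 bp of H3K4me1 at 1340, 930 and 870 TPM, and Spib, an ETS factor of B cells, had 7836 and 10607 bp at 1068, 764 and 984 TPM. The other 4 were Ets1 (H3K4me3 only, 477 bp), Tcf4 and Bach2 (1 library of a mark) and Mef2c (no region at its ends). Ets1 was at 991, 822 and 956 TPM and had 5 H3K4me1-only regions assigned to it by the same rule. Bach2, a repressor of plasma-cell differentiation, had 9 such regions, spanning 30254 bp, at 361, 150 and 227 TPM. The 70721 bp region inside Mef2c does not enter its class, which rests on the outer ends.

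Germinal-centre genes had both marks in 10 of 11, the exception being Elovl6, a fatty-acid elongase, with H3K4me3 only and 2.17, 0.973 and 0.789 TPM. S1pr2, the receptor that holds B cells in the germinal centre, had 24430 bp of H3K4me1 and 668, 154 and 407 TPM. Of 10 plasma-cell genes, 7 had both marks. Xbp1 was classed as H3K4me3 only and stood at 268, 402 and 300 TPM. The regions at its ends held 1899 bp of H3K4me3 and 270 bp of H3K4me1. Slamf7, a surface receptor, was classed as H3K4me1 only at 850, 350 and 594 TPM, and Tnfrsf17, the BCMA receptor, had no region and 0.459, 1.93 and 1.30 TPM. At the RefSeq start of Slamf7 a both-marks region was within 1 kb, whereas its class rests on the outer ends.

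Immediate-early genes, which respond within minutes to stimuli, had both marks in 18 of 21 (85.7%). Zfp36, which speeds the decay of AU-rich mRNAs, was at 1620, 1281 and 1388 TPM and Jun at 1344, 1179 and 830 TPM. Fosl2 had H3K4me3 only, with 1897 bp, and 1.14, 3.86 and 2.35 TPM, while Fos, with 2664 bp of H3K4me3 and 260 bp of H3K4me1, was left unclassed at 878, 639 and 614 TPM. Housekeeping genes had both marks in 28 of 29; Ywhaz, a 14-3-3 protein, had no region at its outer ends and 2496, 2827 and 2265 TPM. Eef1a1 (translation elongation) had 2030 and 2160 bp under the 2 marks at 4729, 4709 and 4843 TPM. Its marked spans were shorter than those of Irf8 and Spib, although its listed TPM were higher. Eef1a1 lies on chromosome 9 and Ywhaz on chromosome 15, which held 46 and 21 of the 100 highest-TPM genes.

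Of a list of 20 genes of H3K4 methyltransferase complexes and histone demethylases, 17 had both marks (85%). Kmt2a, the MLL1 methyltransferase, had 5918 bp of H3K4me3 and 19057 bp of H3K4me1 at 427, 328 and 407 TPM, and Kmt2b had 1869 and 686 bp at 220, 229 and 213 TPM. Kdm2a, a CpG-island demethylase, had H3K4me3 only at 90.6, 86.5 and 82.8 TPM. Ash2l and Dpy30, core subunits of the methyltransferase complexes, had no region at their outer ends and 95.7, 97.7 and 90.3 TPM and 18.0, 17.6 and 14.6 TPM. All 3 RefSeq starts of Dpy30 inside the gene had both marks. Of 4 genes listed for the study's subject, Shmt2 and Bcl2 had both marks, and Sash1 and Ptprm had no region at their ends. Sash1 was at 0.558, 4.76 and 4.82 TPM, with H3K4me3 only at its RefSeq start, and Ptprm at 0.0634, 0.316 and 1.04 TPM.

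Of 44 developmental regulators, 15 had both marks (34.1%) and 17 had no region (38.6%, against 40.1% of all genes), although at least 32 of the 44 were listed at 0 TPM in each library. Hoxb4 had 2255 bp of H3K4me3 and 1950 bp of H3K4me1 at 0.531, 0.504 and 0.474 TPM. Wnt1 had 1520 and 3469 bp at 0.155, 0.103 and 0.217 TPM. Msx1 and Irx3 had H3K4me3 only, and Pax7 and Hoxc8 H3K4me1 only, with mean TPM of 0 to 0.0131. These 6 regulators thus carried 1 or both marks with little or no listed RNA. Others went the other way: Hoxa5 had no region at its ends and 7.44, 2.58 and 4.67 TPM. Hoxa2 was left unclassed at 3.07, 2.83 and 5.91 TPM.

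Of 40 effector genes of other tissues, 3 had both marks (7.50%) and 30 had no region (75%). The somatotropin gene Gh, at 2.41, 1.29 and 0.889 TPM, lay beside Cd79b, a subunit of the B-cell receptor. The regions at the ends of both genes held the same 7788 bp of H3K4me3 and 16075 bp of H3K4me1. The Mbp gene of myelin, which also makes transcripts in blood cells, had both marks at 36.3, 38.4 and 34.6 TPM. Sftpc, a lung surfactant protein, had H3K4me3 only and was listed at 0 in all 3 libraries, and Cela1, a pancreatic elastase, had H3K4me1 only at 0.765, 8.93 and 4.07 TPM.

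Genes of other blood cells were marked in part. Both marks were at 6 of 20 T-cell genes (30.0%), 2 of 12 natural killer genes (16.7%), 7 of 25 myeloid genes (28.0%) and 7 of 20 erythroid genes (35%). The share over all protein-coding genes was 47.1%. These lists are short, and the differences from that share were not tested. H3K4me1 only was at 1 (5%), 2 (16.7%), 2 (8%) and 1 (5%) of the genes in these lists, against 1.36% of all protein-coding genes. In the erythroid list Tfrc, the transferrin receptor, had both marks at 104, 1529 and 382 TPM. Slc4a1, the band 3 anion exchanger of red cells, had no region and 19.9, 1573 and 292 TPM. Epb42, a protein of the red-cell membrane, had no region and 8.995, 675 and 117 TPM. Hbb-bs, a beta-globin gene, had H3K4me1 only and 112, 3381 and 879 TPM. These 4 genes make up most of the erythroid sum given above.

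In the myeloid list 13 of 25 genes had no region (52%). Lyz2 and C1qa, lysozyme and a complement subunit of macrophages, had no region and 79.4, 128 and 125 TPM and 14.6, 88.4 and 121 TPM. Vcam1, an adhesion molecule, had H3K4me3 only at 27.2, 351 and 292 TPM, and Adgre1, the F4/80 antigen, had H3K4me1 only at 10.5, 23.5 and 22.6 TPM. Of the T-cell genes, Cd2 had both marks with 20142 bp of H3K4me1 at 370, 214 and 285 TPM, and Il7r, the interleukin-7 receptor, had no region and 19.9, 307 and 258 TPM. Cd2 is made by mouse B cells as well as T cells. Il7r was lowest in replicate 1, the library with the lowest myeloid and erythroid sums.

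DNA methylation separated H3K4me1-only regions from the other classes. Over regions with at least 3 CpG cytosines covered by at least 10 calls in all 3 libraries, mean methylation was 5.37%, 4.98% and 5.06% at H3K4me3-only regions in replicates 1, 2 and 3 (2775 regions). It was 6.69%, 6.87% and 6.69% at both-marks regions (10987) and 47.1%, 48.6% and 47.5% at H3K4me1-only regions (927). H3K4me1-only regions exceeded H3K4me3-only regions by 42.6 ± 0.93 and both-marks regions by 41.0 ± 0.65 percentage points (SD, n = 3, exact sign-flip permutation p = 0.25 each). Both marks exceeded H3K4me3 only by 1.62 ± 0.28 points, also in 3 of 3 libraries (n = 3, exact sign-flip permutation p = 0.25), and by 2.58 points without H3K4me3 replicate 6. Mean coverage was 67.8 to 74.7 calls per cytosine, and cytosines outside every region averaged 47.5% to 48.8%. That average is over single cytosines and not over regions, and 35.2% to 37.4% of those cytosines were under 10% methylated. Of H3K4me1-only regions, 16.1% to 16.7% were under 10%.

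**Figure D4:**
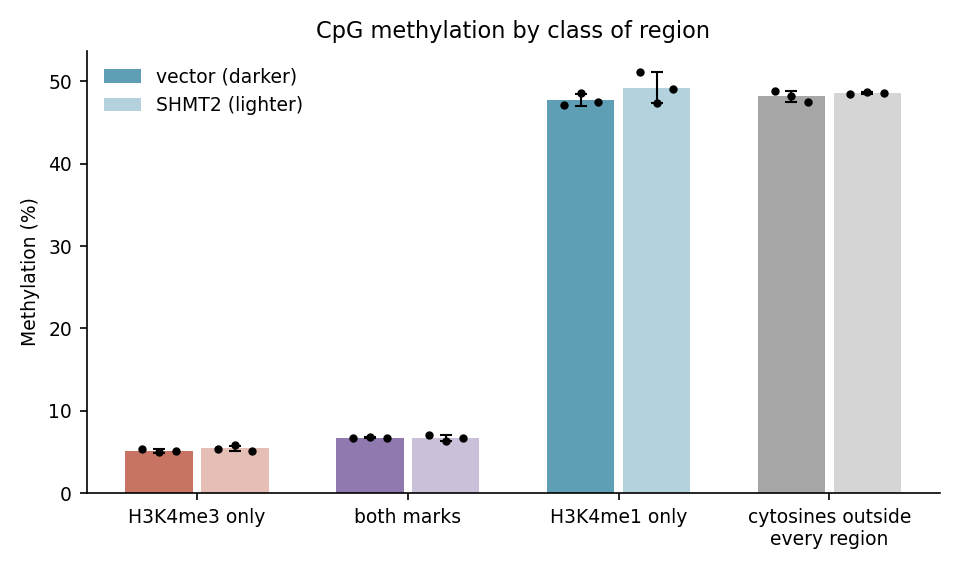
Mean CpG methylation in percent by class of region, for 3 vector libraries (darker bars) and 3 SHMT2 libraries (lighter bars). Points are libraries and error bars are SD. Vector H3K4me1-only regions average 47.7% against 5.13% for H3K4me3 only and 6.75% for both marks. Class bars are means over regions, whereas the bar for cytosines outside every region is a mean over single cytosines.

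ERRBS favours CpG-rich DNA, so the covered part of the classes differed: 61.7% of H3K4me3-only, 72.4% of both-marks and 9.80% of H3K4me1-only regions entered. Distance to a gene end moved with methylation too. At both-marks regions the mean was 3.88%, 3.85% and 3.78% within 1 kb of an end and 19.9%, 21.1% and 20.5% over 10 kb away. At H3K4me3-only regions it was 2.64%, 2.24% and 2.41% within 1 kb and 16.1%, 15.9% and 15.3% over 10 kb away. H3K4me1-only regions had 37.0%, 37.3% and 36.8% within 1 kb (127 regions) and 49.1%, 51.0% and 50.01% over 10 kb away (510 regions). Among regions over 10 kb from an end alone, an alternative added after the data were seen, H3K4me1 only exceeded H3K4me3 only by 34.2 ± 1.13 and both marks by 29.5 ± 0.36 points. H3K4me1-only regions were also the most spread: the quartiles were 16.7% and 76.9% in replicate 1, and 16.1% to 16.7% of regions were under 10% methylated.

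The SHMT2 libraries, which the classes did not use, held the same marks at most members. An H3K4me3 peak of every one of the 3 SHMT2 libraries lay in 98.5% of both-marks regions, 91.0% of H3K4me3-only regions and 3.10% of H3K4me1-only regions. An H3K4me1 peak of both SHMT2 libraries lay in 99.8% of both-marks and 99.2% of H3K4me1-only regions. It also lay in 45.4% of H3K4me3-only regions (2043 of 4496), with 56.9% in replicate 4 and 53.6% in replicate 5. The SHMT2 H3K4me1 lists were longer, 47948 and 50959 peaks against 36622 and 32742 in vector cells. Group and list length cannot be told apart here.

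**Figure D5:**
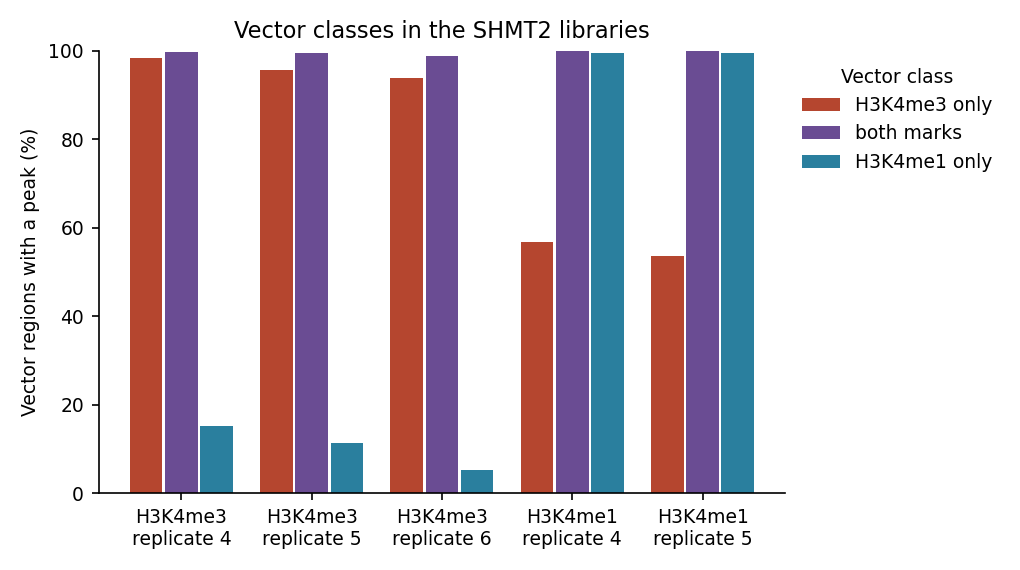
Share of vector regions of each class, in percent, that hold a peak in each of the 5 SHMT2 libraries. Bars show both-marks regions with a peak of either mark in nearly every case, H3K4me1-only regions with H3K4me3 peaks in 5.16% to 15.2%, and H3K4me3-only regions with H3K4me1 peaks in 53.6% and 56.9%.

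The lack of H3K4me1 in the H3K4me3-only class was less often seen again in the SHMT2 libraries among regions away from doubly marked ones. H3K4me3-only regions within 1 kb of a both-marks region had an SHMT2 H3K4me1 peak in 46.0% and 42.6% (replicates 4 and 5), and the others in 64.4% and 61.1%. With regions that had an H3K4me1 peak in either SHMT2 library left out, a choice made after the data were seen, 1574 H3K4me3-only regions remained. The 263 genes with such regions were below both-marks genes by 0.96 ± 0.03 on the log2(TPM + 1) scale, in place of 1.56 ± 0.03, and above H3K4me1-only genes by 1.38 ± 0.12 (SD, n = 3; exact sign-flip permutation p = 0.25 each).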

How the data were processed

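The authors deposited 1 peak list per ChIP-seq library, narrow for H3K4me3 and broad for H3K4me1. For peaks, the authors deposited a fold enrichment (a ratio) and a −log10 q-value, used here to describe, rank or filter peaks of the same list. The submitters' processing notes name BWA, Bismark, Bowtie2, MACS2, STAR and mm10 without saying which made which file. TPM were computed by the authors and keep no depth. For each cytosine, the deposited ERRBS tables give a coverage count and the percent of methylated calls.

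Regions, classes and distances were computed with Python 3.11.15, numpy 2.4.6, pandas 2.3.3 and scipy 1.17.1. On simulated data, 100% of regions and genes came back in the class they were made with. Genes, start sites and promoters came from RefSeq GRCm38.p6, the assembly also called mm10. Of 20665 autosomal protein-coding genes, 19421 had a TPM row, 1788 by an older symbol, and 16457 had a listed promoter. A gene took the class of regions within 1 kb of either outer end, with both marks before H3K4me3 only before H3K4me1 only. Expression was compared within each library as the mean of log2(TPM + 1), a scale that understates the change of low genes, and methylation as the mean over regions with at least 3 cytosines covered at least 10 times in all 3 libraries of the group. All tests were two-sided exact permutation tests: sign flips over 3 libraries cannot go below p = 0.25, and 2 against 2 libraries cannot go below p = 0.333, so no comparison could reach 0.05.

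The members and gene lists were chosen with earlier results of these data known. Named genes were the 2 members of each list and class with the highest mean TPM. Named regions were, per class, the 5 with the highest fold percentile in the weakest library and the widest, and for H3K4me1 only also the 5 highest over 10 kb from a protein-coding gene end. Where others are named, the text says that they were chosen after their values were seen. Sex chromosomes and inputs were not analysed here. Some genes that the rule names are not reported here. Alternatives covered the peak threshold, merging, overlap, windows, pseudocount, filters, coverage and each library left out in turn.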

Additional observations from a re-analysis of the deposited data

How the results depend on the processing

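Class sizes and widths moved with how peaks were chosen, while the expression, methylation and peak-position differences kept their direction under each alternative run, with 1 exception. Among genes averaging 1 TPM or more, H3K4me3 only minus H3K4me1 only was 0.10 ± 0.27 and its sign differed between libraries. Under a −log10 q of at least 5, run for expression after the data were seen, that difference was 0.50 ± 0.27. Only 5 H3K4me1-only genes were left there, so the direction against that class rests on those 5 genes. With peaks of a −log10 q of at least 5, H3K4me3 only, both marks and H3K4me1 only held 18934, 1040 and 270 regions of median width 799, 5383 and 3726.5 bp. With peaks within 1000 bp merged, 1743 regions were H3K4me3 only, with a median width of 638 bp, and both-marks regions had 2897 bp. From the replicate 4 libraries alone came 7471 H3K4me3-only and 17655 H3K4me1-only regions. With regions built for each mark separately, requiring an overlap of at least 0.5 of the shorter region gave 7871 H3K4me3-only regions. In the main classes, removing H3K4me3-only regions with an H3K4me1 peak in either SHMT2 library left 1574. That alternative was added after seeing the data. Bases under peaks in both-marks regions had medians of 1207 bp (H3K4me3) and 2034.5 bp (H3K4me1).

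Leaving out 1 ChIP library gave 5597 to 7654 H3K4me3-only, 15824 to 17365 both-marks and 9971 to 16392 H3K4me1-only regions, with median widths of 375 to 571, 1937 to 2371 and 972 to 1725 bp. Over the ChIP and RNA libraries left out, both marks minus H3K4me3 only ranged from 1.41 to 1.69 and H3K4me3 only minus H3K4me1 only from 0.80 to 1.27 on the log2(TPM + 1) scale. Over the ChIP and ERRBS libraries left out, H3K4me1 only minus H3K4me3 only ranged from 39.8 to 43.0 percentage points of methylation. No p could pass 0.05 in any of these, so p-values say nothing about stability. The depth of the ChIP and RNA libraries is unknown, and a missing peak does not show a missing mark. No paired analysis was possible because the H3K4me3 and H3K4me1 libraries of vector cells share only 1 replicate number. The RNA and ERRBS differences were taken within each library and are paired in that sense, with no block by replicate number to add.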
